A study of Sus scrofa with 12 samples.

Results

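Cut positions at which the deposited tables list no gene made up 810 of the 2934 interactions (27.6%) that PAREsnip retained in pig loin muscle, against 2124 at which at least 1 gene was listed. An interaction is 1 small RNA at 1 genomic position in 1 library, the position being the listed window start plus the listed cleavage position. A cut was taken as having no gene when none of its rows carried an Ensembl pig gene identifier, so neither category, score nor abundance entered the choice. Loin muscle of 12 female pigs of 3 breeds, Hampshire, Pietrain and Polish Large White, was sampled, with 2 libraries labelled low MM and 2 high MM in each breed. The pigs were slaughtered at 100 ± 2 kg and recorded at day 180, and all RNA had an integrity number over 7. The labels do not expand MM, and the series title names muscle mass. The workbook's tab names exchange high and low in Pietrain, where the sample titles were followed here. Shear force is labelled light in all 6 low MM pigs and heavy in all 6 high MM pigs, so that MM and shear force cannot be told apart.

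Animal microRNAs guide Argonaute proteins to partly complementary messenger RNAs, and Argonaute 2 can slice a target opposite the middle of a well-paired small RNA. The downstream piece keeps a free 5′ phosphate, which degradome sequencing, here PARE (parallel analysis of RNA ends), captures and maps. The same ends also arise from decapping, from other nucleases and from transcripts that no annotation yet describes. PAREsnip grades each cut by a category from 0 to 4, where 0 is the tallest end on its sequence and 4 the weakest evidence. The alignment score counts mismatches and wobbles, so that a lower score is a better pairing. Fragment abundance is a score of the authors whose scale is not given, and weighted abundance divides it by the number of positions that the fragment matches. No small RNA, fragment or genomic sequence is shown, because none is held in the sources used here.

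The tissue label was checked on the interactions with a gene. Of 18 skeletal muscle markers 12 were listed as targets somewhere in the 12 libraries, among them ACTA1, CKM, TTN and NEB. None of 4 fat, 3 endothelial or 4 epithelial markers was listed, and 1 of 3 blood markers, ALAS2, was listed in 1 library. Being listed requires a cut as well as expression, so these counts do not measure the amount of any cell type.

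Members were listed in every library, from 11 interactions in Pietrain low MM replicate 1 to 233 in Hampshire high MM replicate 2, with a median of 51.0. Their share of a library's interactions averaged 24.8% ± 9.10 (SD, n = 12). In Hampshire the share was 20.2% and 42.9% in high MM replicates 1 and 2, and 22.7% and 20.3% in low MM replicates 1 and 2. High MM replicate 2 stood apart, and the other Hampshire libraries lay within 2.48 percentage points of each other. In Pietrain it was 20.1% and 15.4% in high MM replicates 1 and 2, and 9.48% and 22.7% in the corresponding low MM libraries. Polish Large White had 28.9% and 35.3% in high MM replicates 1 and 2, against 31.5% and 28.6% in low MM replicates 1 and 2. Every Polish Large White library was above every Pietrain library, while Hampshire overlapped both. The 95% Wilson intervals, which cover counting error only and treat interactions as independent, were 5.38% to 16.2% in the library with the lowest share and 38.8% to 47.1% in the library with the highest.

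**Figure D1:**
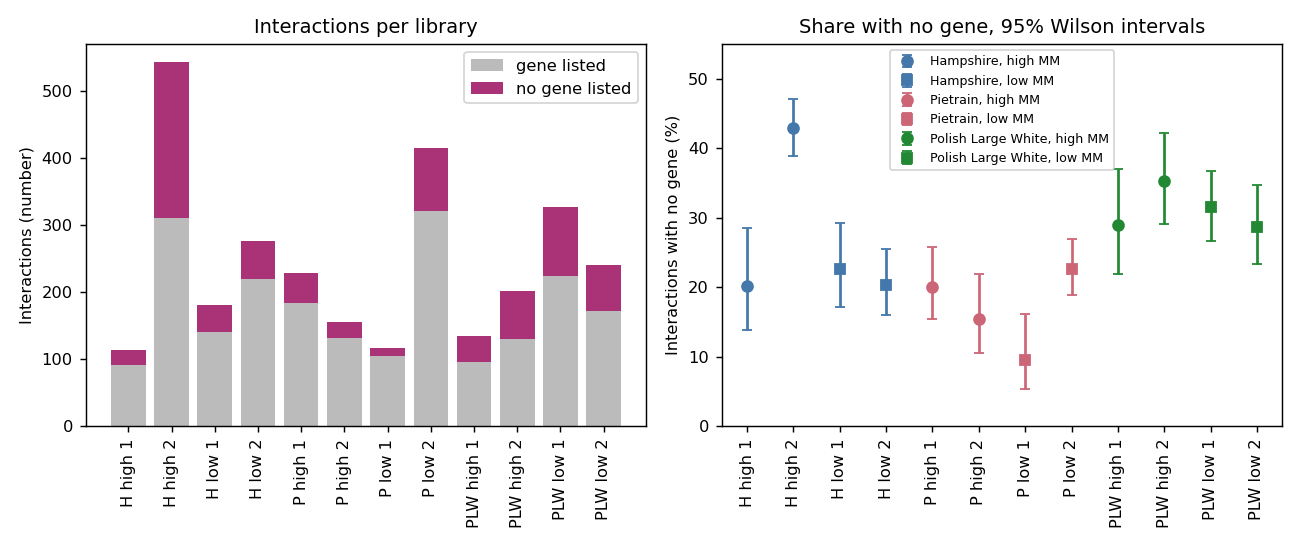
Left, number of interactions per library with (grey) and without (purple) a listed gene; right, percentage with no gene per library with 95% Wilson intervals, by breed (colour) and MM group (circle high, square low; H Hampshire, P Pietrain, PLW Polish Large White). Hampshire high MM replicate 2, at 42.9%, lies above the other 11 libraries, and the 4 Polish Large White libraries lie above the 4 Pietrain libraries.

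The design asks whether the share differed between muscle mass groups and between breeds. It averaged 27.1% ± 10.5 (SD, n = 6) in high MM and 22.5% ± 7.65 (SD, n = 6) in low MM libraries, and the groups overlapped. High minus low MM was 10.1 percentage points among Hampshire libraries, 1.67 among Pietrain libraries and 2.04 among Polish Large White libraries. The mean of these, 4.59 points, was within the spread between replicates (adjusted p = 0.343, exact two-sided permutation within breeds). Rows whose ratio of normalized to weighted abundance was under 0.15 were held by all 6 low MM libraries but by only 1 of the 6 labelled high MM, and so this ratio, whose meaning is not stated, and MM largely cannot be told apart. On rows with a higher ratio alone, in 10 libraries, the difference was 12.9 points (adjusted p = 0.148, exact permutation). It was 0.805 points without Hampshire high MM replicate 2, -1.66 with named miRNAs only, -3.76 with category 0 to 2 only and -0.28 with interactions that share library, small RNA, class, abundance and matching number counted once, so that no direction is given for it.

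Breed means were 26.5% ± 10.99 (SD, n = 4) for Hampshire, 16.9% ± 5.79 (SD, n = 4) for Pietrain and 31.1% ± 3.11 (SD, n = 4) for Polish Large White. Their variance did not pass the exact one-sided permutation test over all partitions of the 12 libraries (p = 0.0566, adjusted p = 0.113 over these 2 comparisons). Leaving out Hampshire high MM replicate 2 took it past the threshold (adjusted p = 0.0156, exact permutation). The variance, 52.4 squared percentage points with all data, was 12.9 on rows with a higher ratio alone (adjusted p = 0.777) and 4.68 with shared fragment values counted once as above (adjusted p = 0.944, both exact permutation). Nothing in the labels says that animals of a group differed in litter or batch, and p-values measure the spread between these animals.

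The members lay on all 18 autosomes, on X, on 21 unplaced scaffolds and, once, in the mitochondrial genome. The largest numbers were on chromosomes 1 (73 of 271 interactions, 26.9%), 6 (69 of 265, 26.0%), 3 (65 of 204, 31.9%) and 13 (60 of 237, 25.3%). Over all interactions the share was 27.6%. Relative to all interactions of a chromosome, the share without a gene was highest on chromosomes 8 (50 of 105, 47.6%), 11 (29 of 61, 47.5%), 16 (29 of 63, 46.0%) and X (52 of 115, 45.2%). It was lowest among nuclear chromosomes on 14 (26 of 166, 15.7%), 12 (26 of 137, 18.98%), 17 (18 of 92, 19.6%) and 5 (21 of 107, 19.6%). The unplaced scaffolds were highest of all, with 37 members among 63 interactions (58.7%), of which 6 lay on scaffold AEMK02000489.1. The mitochondrial genome, with few bases between its genes, held 109 interactions with a gene and 1 without.

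Chromosomes with more protein-coding genes per megabase in RefSeq's annotation of Sscrofa11.1 had a lower share without a gene (Pearson r = -0.53, Spearman rho = -0.41, 19 nuclear chromosomes). The density was 4.08 genes per megabase on chromosome 11, 4.32 on 16 and 4.94 on 8, against 18.2 on chromosome 12. Chromosome 14, with the lowest share, was intermediate at 8.33 genes per megabase. This is a description across chromosomes that share libraries and fragments, and it was not tested.

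**Figure D2:**
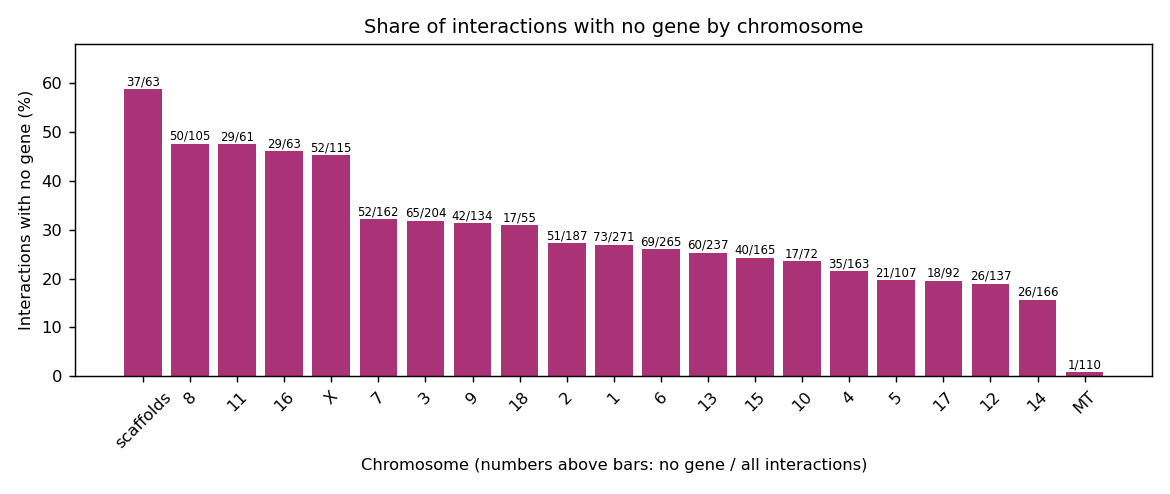
Percentage of interactions with no listed gene on each chromosome, the mitochondrial genome (MT) and the unplaced scaffolds, pooled over 12 libraries and ordered by height, with the number of interactions without a gene and in all above each bar. Scaffolds and chromosomes 8, 11, 16 and X lie above 45%, and the mitochondrial genome is at 0.909%.

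The sources used here name no genome build for the tables. Scaffold names begin as those of Sscrofa11.1 do, and of 1535 pairs of listed gene and position whose symbol RefSeq also has, 99.7% lay on that gene's RefSeq chromosome and 84.0% inside its RefSeq span (96.5% within 100000 bases). On this footing the windows of each interaction were compared, on either strand, with RefSeq genes of Sscrofa11.1. The stretch compared ran from the first window start to 10 bases past the last in every library, and need not hold the cut itself. Of the 773 members on assembled chromosomes, 501 (64.8%) touched no RefSeq gene, 156 (20.2%) lay in the span of a protein-coding gene, introns included, 108 (14.0%) in that of a long non-coding RNA alone and 8 in other genes. Interactions with a listed gene lay in a protein-coding span in 91.3% of 2098 cases and in a long non-coding RNA span alone in 1.57%. Since the listing of a gene defined the classes, the contrast in coding spans carries no test. A long non-coding RNA was counted only outside coding spans, so the shares of 14.0% and 1.57% do not compare like with like. Outside coding spans, 108 members touched a long non-coding RNA and 501 no gene, against 33 and 135 interactions with a gene.

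By library, the portion of members touching no RefSeq gene ran from 54.5% to 72.7% with a median of 64.4%. The portion in a long non-coding RNA span alone ran from 4.62% to 20.5% with a median of 14.6%. Among the 501 members outside every RefSeq gene, 165 (32.9%) were within 10000 bases of a protein-coding gene and 157 (31.3%) were more than 100000 bases from any. The 156 members in coding spans were spread thinly; among those with most, RYR1, the calcium release channel of the sarcoplasmic reticulum, PPP1R3A, which brings protein phosphatase 1 to glycogen in muscle, and ISPD, needed to glycosylate dystroglycan, held 3 interactions each.

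Text stood in the gene columns of 3 members without an identifier. Polish Large White low MM replicate 1 carried the label MLCK, a common abbreviation of myosin light chain kinase, at a miR-128 cut on chromosome 2 at position 51532394. The label CNV stood at 2 cuts of the unnamed small RNA NA29 in Hampshire high MM replicate 1, and its meaning is not given. Nuclear windows are listed on both strands, and of 5882 window starts listed on both strands in interactions with a gene, 89.8% carried the gene on 1 strand only, 585 on both and 15 on neither. A member had no gene on any strand listed.

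The fragments behind members had higher matching numbers than those behind cuts in genes. Overlapping windows of 1 locus may be counted in this number, which was not tested. At the miR-320 cut on chromosome 18, 13 window starts stood beside 14 matching positions in Pietrain low MM replicate 2. In Hampshire low MM replicate 2, 1 stood beside 18. Over the libraries the median number of matching positions per library was 47.0 at the lowest, 219 in the middle and 1309 at the highest for members, against 27.5, 61.0 and 843 for interactions with a gene. Members were higher in 9 of 12 libraries and equal in 3, those equal being Hampshire high MM replicates 1 and 2 and Polish Large White high MM replicate 2. The mean difference was 143 ± 301 positions (SD, n = 12), which passed the exact two-sided sign-flip test over libraries (adjusted p = 0.00977, over 5 measures). Polish Large White high MM replicate 1 had the widest gap, 1309 against 246, and without it the mean difference was 59.1 positions. The difference did not pass with category 0 to 2 only (78.4 positions, adjusted p = 0.0635) or with shared fragment values counted once (49.2 positions, adjusted p = 0.0671, both exact sign-flip).

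Pooled over libraries, a gene was missing at 10 of the 71 interactions (14.1%) whose fragment matched 1 position. The share was 13.0% of 369 at 2 to 10 positions, 17.9% of 1013 at 11 to 100 and 42.1% of 1160 above 100 and up to 1000. That last range leans on few fragment values. In Hampshire high MM replicate 2, 1 pair of values at 473 matching positions stood at 396 interactions, 197 of them members. Above 1000 positions the share was 26.1% of 318, and 82.7% of these were assigned to miR-4331-5p. Only 1.23% of members had a fragment matching 1 position, against 2.87% of interactions with a gene.

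**Figure D3:**
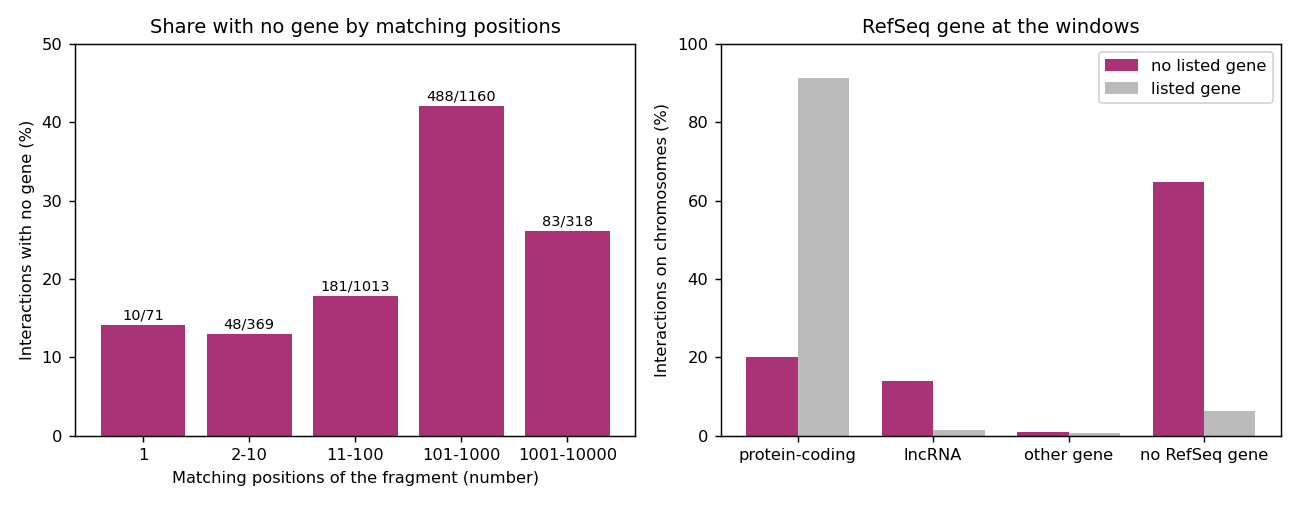
Left, percentage of interactions with no listed gene by the matching number of the fragment, with counts above the bars. Right, percentage of the interactions on assembled chromosomes whose windows touch a RefSeq protein-coding gene, a long non-coding RNA alone, another gene or no gene, for members (purple) and interactions with a gene (grey). The share without a gene is 42.1% above 100 and up to 1000 matching positions, and 64.8% of members touch no RefSeq gene.

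Many members shared their fragment values. Interactions from 1 fragment share its abundance and weighted abundance, although fragments can also share these by coincidence. Counting each such pair of values per library, the members had 208 of them. Of these pairs 102 occurred at 1 interaction, while the 11 pairs at 10 or more interactions covered 432 members (53.3%). In Hampshire high MM replicate 2, 197 of 233 members had an abundance of 20 and 473 matching positions. They lay at 151 positions and were assigned to the unnamed small RNAs NA57 and NA71/NA72. The same pair of values also stood at cuts with a gene, and members were 49.7% of its 396 interactions.

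In Polish Large White low MM replicate 1, 61 of 103 members had an abundance of 20 and 135 matching positions, all assigned to miR-145-5p, and 73.5% of the 83 interactions with those values had no gene. In Polish Large White high MM replicate 2, 55 of 71 members had an abundance of 20 and 607 matching positions (NA26). In Polish Large White high MM replicate 1, 22 of 39 had an abundance of 20 and 1309 matching positions (miR-432-5p). In Pietrain low MM replicate 1 the most frequent pair of values covered 2 of 11 members. An abundance of 20 was listed for 67.0% of members and 40.7% of interactions with a gene.

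Positions without a gene were listed with fewer windows. The mean number of window starts per interaction ran from 1.00 to 2.08 between libraries, with a median of 1.21, against 2.48 to 6.76, with a median of 4.56, for interactions with a gene. The values did not overlap, and members were lower in 12 of 12 libraries. The mean difference was -3.19 ± 0.958 window starts (SD, n = 12; adjusted p = 0.00244, exact two-sided sign-flip). It was -1.68 without mitochondrial positions, which hold 109 interactions with a gene and 1 member, and -7.09 with shared fragment values counted once, and members were lower in 12 of 12 libraries each time. Only 45 members had more than 1 window start, so that 94.4% had exactly 1, against 1508 of 2124 interactions with a gene. An interaction with more windows also had more rows that could list a gene, so the rule for members itself favours fewer windows. The p-value does not separate this built-in part from the rest of the difference. The sources used here do not say how the windows were laid over the genome. Listed windows had a span of 10 bases, but of 20 in Polish Large White high MM replicate 2, which had the 2.48 for interactions with a gene. Neither the part of the rule nor that of the layout in this difference was tested.

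**Figure D4:**
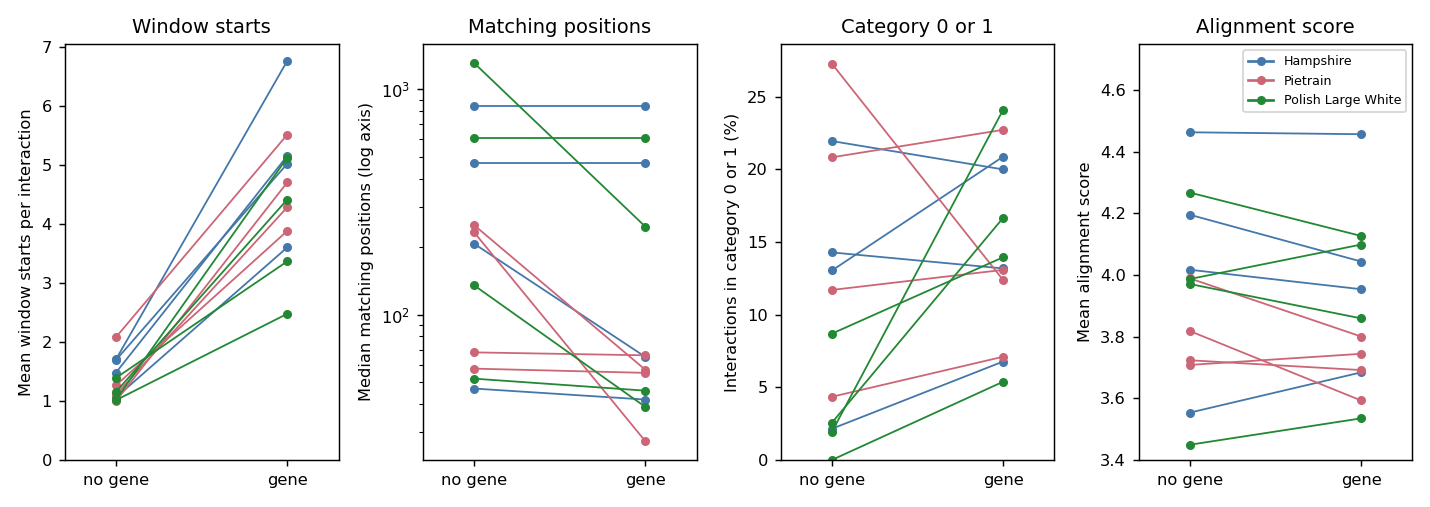
Values of members (no gene) and of interactions with a gene in each of the 12 libraries, joined by a line per library and coloured by breed: mean window starts, median matching positions (log axis), percentage in category 0 or 1, and mean alignment score, whose axis does not start at 0. Window starts are fewer for members in 12 of 12 libraries and matching positions are more numerous or equal in all 12, while the other measures cross in several libraries.

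Strong cuts were listed in both classes. Of the members, 31 were of category 0, 24 of category 1, 283 of category 2, 460 of category 3 and 12 of category 4. Category 3, where the end is no taller than the average on its sequence, made up 56.8% of members and 41.5% of interactions with a gene, and category 4, a lone read, 1.48% and 10.6%. These shares are pooled over libraries, lean on few fragment values and were not tested. In Hampshire high MM replicate 2, 1 pair of values stood at 396 interactions, of which 197 were members, mostly of category 3. The share in category 0 or 1 ran over libraries from 0% through a median of 10.2% to 27.3% for members and from 5.38% through 13.6% to 24.1% for interactions with a gene. Members were lower in 9 of 12 libraries. The mean difference, -3.95 ± 8.95 percentage points (SD, n = 12), did not pass (adjusted p = 0.204, exact two-sided sign-flip). Without Pietrain low MM replicate 1, where 3 of 11 members were of category 0 or 1, it was -5.67 points and passed (adjusted p = 0.0146, exact sign-flip). Without miR-4331-5p it was 0.43 points. The lowest category of an interaction's rows was taken, and interactions with a gene had more window starts, so more rows to draw it from. With the most frequent category in its place the difference was -3.25 points (adjusted p = 0.205, exact sign-flip).

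Alignment scores of the classes overlapped. The mean alignment score ran from 3.45 through a median of 3.98 to 4.46 for members and from 3.53 through 3.83 to 4.46 for interactions with a gene. It was higher, meaning poorer pairing, for members in 8 of 12 libraries, and the mean difference of 0.05 ± 0.12 (SD, n = 12) did not pass (adjusted p = 0.205, exact two-sided sign-flip). Without miR-4331-5p the difference was 0.11 and passed (adjusted p = 0.0146), while with shared abundance and matching number counted once it was -0.19 (adjusted p = 0.00814, both exact sign-flip), so that no direction is given for it. A score of 4.5, the poorest listed, was held by 32.6% of members and 32.0% of interactions with a gene.

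Unnamed small RNAs, which the tables number with the prefix NA separately in each library, were assigned to 472 of 810 members (58.3%) and to 895 of the 2124 interactions with a gene (42.1%). By library the share of members assigned to them ran from 0% in Pietrain low MM replicate 1 to 93.0% for Polish Large White high MM replicate 2, with a median of 46.0%. The mean difference from interactions with a gene, 5.20 ± 11.2 percentage points (SD, n = 12), did not pass (adjusted p = 0.204, exact two-sided sign-flip), and members were higher in 7 of 12 libraries. With shared fragment values counted once it was 14.0 points and passed (adjusted p = 0.00814, exact sign-flip). In each library 1 small RNA led, with 41.5% to 93.0% of the members. It was an unnamed one in 6 libraries, miR-4331-5p in 3, miR-432-5p in 2 and miR-145-5p in 1.

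The unnamed NA71/NA72 had 130 members among 260 interactions and NA57 71 (49.0% of its own), all in Hampshire high MM replicate 2. NA26 had 74 among 186, NA24 56 among 196, NA25 35 among 110, NA15 27 among 111 and NA37 26 among 98. Numbers are not shared between libraries, so that counts of 1 number over several libraries may join different molecules. Among named miRNAs alone, the share without a gene in Hampshire high MM replicate 2 was 18.1% (17 of 94), near the median of 17.9% over the 12 libraries. The range of that share was 9.73% in Pietrain low MM replicate 1 to 35.2% in Polish Large White low MM replicate 1.

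Of 126 named miRNAs in the tables, 29 had at least 1 member, 15 of them exactly 1. The most frequent was miR-4331-5p, a porcine miRNA, with 172 members in 12 of 12 libraries among 702 interactions (24.5%). Its share without a gene was 11.8% in the lowest library, 25.4% in the middle and 34.0% in the highest. It was lowest in Polish Large White high MM replicate 2 and highest in Polish Large White low MM replicate 2, so that the extremes lay in the same breed.

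The next was miR-145-5p, known from smooth muscle, with 76 members among 100 interactions, of which 75 were in Polish Large White low MM replicate 1 and 1 in Pietrain low MM replicate 2. In the former library 72.8% of the members were its own, and without it 12.3% of that library's interactions had no gene. Then came miR-432-5p, encoded in the imprinted DLK1-DIO3 cluster of mammals, with 37 members among 88 interactions in 5 libraries, of which 22 were in Polish Large White high MM replicate 1 and 11 in Hampshire high MM replicate 1. Further down were miR-660 with 10 members among 24 interactions in 5 libraries and miR-4334-3p with 6 among 18 in 4. Without miR-4331-5p, miR-145-5p and miR-432-5p, chosen after their counts were seen, 53 of 677 interactions of named miRNAs (7.83%) had no gene.

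**Figure D5:**
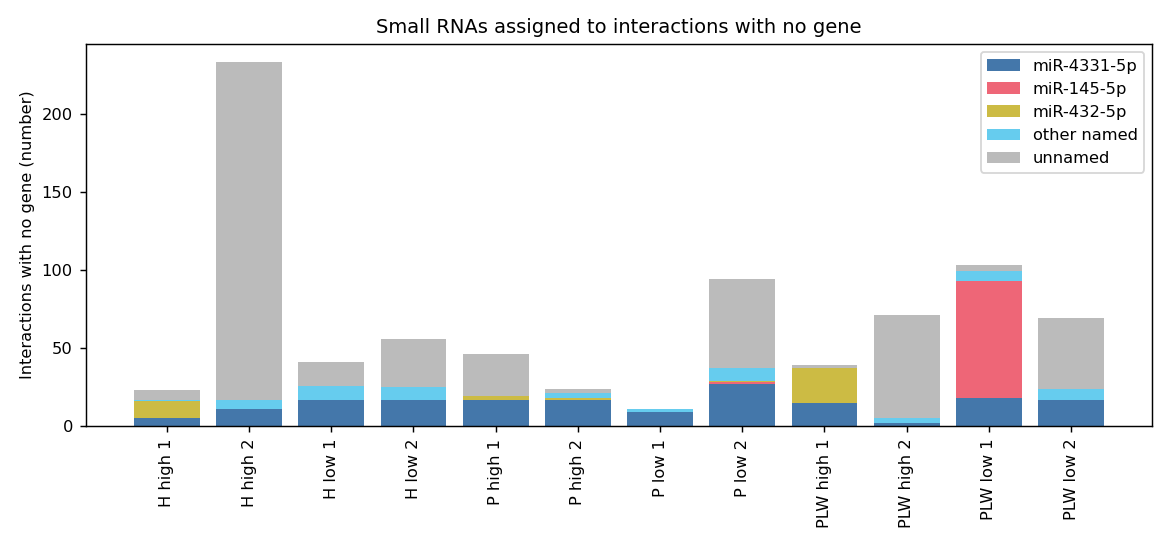
Number of interactions with no listed gene per library, stacked by the small RNA assigned to them: miR-4331-5p, miR-145-5p, miR-432-5p, other named miRNAs and unnamed small RNAs (library names as in the plot of shares per library). Unnamed small RNAs hold 92.7% of those in Hampshire high MM replicate 2, miR-145-5p holds 75 of the 103 in Polish Large White low MM replicate 1, and miR-4331-5p appears in all 12 libraries.

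The miRNAs known to act in muscle had few members, as had most named miRNAs, of which 97 of 126 had none. Of 11 names looked for, 7 were listed: miR-133a-3p, miR-206, miR-208b, miR-499-5p, miR-486, miR-378 and a joint name of miR-378. No interaction was listed for miR-1. The 7 names had 90 interactions, and 2 of these (2.22%) had no gene. They were 1 of miR-378 and 1 listed under a name that joins miR-378 with miR-378b-3p. The let-7 family with miR-98, regulators of growth and differentiation, had 3 members among 86 interactions (3.49%), of let-7a, let-7f-5p and miR-98. For all named miRNAs the share was 21.6%, and 7.83% without the 3 named above. The miR-30 family had 1 among 7. There was none among 15 interactions of the miR-17/92 cluster and its paralogues, or 35 of miR-23 and miR-27. Nor was there any among 15 of miR-10, miR-99 and miR-125, 10 of the inflammation-linked miR-155 and miR-146, and 1 of miR-29. For miR-24, miR-100 and miR-21 no interaction was listed. The co-transcribed miR-143 and miR-145 had 76 among 107, all of them of miR-145-5p.

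Recurrence between animals was counted over named miRNAs only, as a description. Of 281 positions without a gene in any library, 248 were listed in 1 library, 27 in 2 and 6 in 3, so that 11.7% recurred and none was in more than 3. Of 804 positions with a gene in every library that listed them, 158 (19.7%) recurred, and 2 were listed in all 12 libraries. Another 15 positions, with a gene in some libraries only, were left out of both counts. Such positions recur by definition, here in up to 6 libraries, and leaving the 15 out lowers the recurrence of both classes. Within libraries, 27.4% ± 20.5 (SD, n = 12) of members were also listed in another library, against 47.7% ± 10.2 (SD, n = 12) of interactions with a gene. Members were lower in 10 of 12 libraries, with a mean difference of -20.3 ± 18.99 percentage points (SD, n = 12). Whatever the small RNA, 686 positions had no gene in any library, of which 639 were in 1 library, 39 in 2 and 8 in 3.

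The 6 named positions in 3 libraries, given with the tables' coordinates, belonged to 3 miRNAs. For miR-4331-5p, position 33719266 on chromosome 16, between HSPB3, a small heat-shock protein of muscle, and SNX18 by RefSeq, was listed in Hampshire (replicate 1 of high MM, replicate 2 of low MM) and in Pietrain low MM replicate 2. Its alignment score was 3 in each and its fragments matched 1507, 1704 and 1818 positions. Position 28250455 on chromosome 16, between NNT and FGF10, was of category 2 with an alignment score of 4 in Pietrain high MM replicate 2, Pietrain low MM replicate 2 and Polish Large White low MM replicate 1. Its fragments matched 14, 10 and 13 positions, fewer than those of the other miR-4331-5p positions in 3 libraries.

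Position 60979487 on chromosome 2, between SMIM7 and MED26, had alignment scores of 4.5 in Hampshire low MM replicate 1 and 4 in Pietrain high MM replicate 1 and Polish Large White low MM replicate 1. Its fragments matched 189, 315 and 263 positions. Position 34538835 on chromosome 3, between TMEM114 and RBFOX1, a splicing factor of muscle and neurons, was listed in 3 of the 4 Pietrain libraries and in no library of another breed. Its alignment score was 4 in each, and its fragments matched 1401 to 1947 positions.

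Both other recurrent positions were of category 0 or 1 in each library, at the poorest alignment score of 4.5. The miR-320 cut at position 32039602 on chromosome 18 lies in the RefSeq span of PPP1R3A, and was of category 0 in Hampshire low MM replicate 2 and Pietrain low MM replicate 2 and of category 1 in Polish Large White low MM replicate 2. Its fragment abundances were 3, 2 and 2, its fragments matched 18, 14 and 13 positions, and it accounts for all 3 of the members in PPP1R3A. All 3 libraries were low MM replicate 2 of their breed, and each held rows with a ratio of normalized to weighted abundance under 0.15. The miR-4334-3p cut at position 48847 of scaffold AEMK02000489.1 was of category 1 in Hampshire low MM replicate 1, Pietrain high MM replicate 2 and Pietrain low MM replicate 2. Its abundances were 6, 2 and 2, and its fragments matched 116, 114 and 74 positions.

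Category 0 or 1 was reached by 55 members, in 11 libraries, of which 38 had a named miRNA and 17 had miR-4331-5p. A fragment matching at most 10 positions stood behind 28 of them and one matching 1 position behind 7. By RefSeq 29 touched no gene, 14 lay in a coding span and 6 in that of a long non-coding RNA alone. The lowest alignment score among them was that of miR-4331-5p at position 38196077 on chromosome 8, between TEC and SLAIN2. It was of category 0 with an alignment score of 2 and 8 matching positions in Pietrain high MM replicate 2, and the position was a member in 2 libraries.

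Next came miR-4331-5p at position 18739259 on chromosome 3 in Hampshire low MM replicate 2, of category 0 with a score of 2.5. It lay in the span of the long non-coding RNA LOC110259911 and had 28 matching positions. At a score of 3, miR-4331-5p had cuts of category 0 at position 57218020 on chromosome 1 (PM20D2), at position 5931821 on chromosome 11 (LOC110255799) and at position 151065 of scaffold AEMK02000589.1. Their fragments matched 9, 250 and 201 positions in this order. Cuts of miR-4331-5p of category 1 were at position 31890272 on chromosome 7 (LOC110261511) and position 131900950 on chromosome 9, between RCOR3 and KCNH1. Each of these 2 had 6 matching positions. The unnamed NA24 cut position 40594503 on chromosome 17, between SRC and BLCAP, in Pietrain low MM replicate 2 at category 1, with a fragment that matched 1 position. At a score of 3.5, miR-4331-5p had a cut at position 96765479 on chromosome 1, of category 0, between IER3IP1 and SKOR2, with 13 matching positions.

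Some members were positions whose gene the tables list in another library. A gene was listed at 15 positions of named miRNAs in some libraries and not in others. Whatever the small RNA, 19 positions had a gene in some interactions only, and these held 22 of the 810 members. Of the 19, 3 were listed in 1 library only, where the gene stood with another small RNA of that library. With miR-378, a regulator of muscle metabolism, position 47804817 on chromosome 14 carried the identifier of the non-coding RNA family RF01892 in 3 Pietrain libraries and none in Polish Large White low MM replicate 1. Its median alignment score was 1, the lowest of any member. The let-7f-5p cut at position 110911270 on chromosome 15 was listed with the cyclin-related gene CCNYL1 in 5 of 6 libraries and without it in Polish Large White low MM replicate 2. The miR-150 cut at position 128960294 on chromosome 1 was listed with CAPN3, the muscle protease calpain 3, and ZNF106 in 3 of 4 libraries, and the miR-769-5p cut at position 93589005 on chromosome 15 with COL3A1, a fibrillar collagen, in 2 of 3.

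The only mitochondrial member was miR-98 at position 3591, which carried ENSSSCG00000018063 in 5 of 6 libraries and nothing in Hampshire high MM replicate 2. Of the 15 positions 10 were of miR-4331-5p, among them the PM20D2 position, with a gene in 4 of 6 libraries, and position 26410614 on chromosome 3, with ITPRIPL2 in 3 of 5. The libraries with most such gaps were Polish Large White low MM replicate 1 with 5, and Hampshire low MM replicate 1, Pietrain low MM replicate 2 and Polish Large White low MM replicate 2 with 3 each. Over all windows of 1 strand listed in at least 2 libraries, 79 of 1836 (4.30%) carried a gene in some rows only. With these 22 members counted as having a gene, each of the 7 tested comparisons kept its direction and its side of the threshold, and the difference in recurrence moved by less than 1 SD.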

How the data were processed

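PARE tables of 12 libraries, PAREsnip output per the file headers, were read as deposited. The submitters' processing notes name CASAVA 1.8.2 and FastQC; for aligner, genome build and annotation, not given in the sources used here, nothing was assumed. All samples are labelled pig, although the design text of the series mentions chickens. The category, alignment score and fragment abundance are scores of the authors. The deposited p-value was rounded to 2 decimals and was not used for testing. Weighted and normalized abundance are deposited signal values; their ratio fell under 0.15 in some rows and above it in others, which no source explains. The tables hold 19855 rows, 2129 of them of members, and 699 to 2949 a library. They list retained interactions only, and read depth is not given, so the number of interactions limits the precision.

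Each interaction took the lowest category, the median alignment score and the median matching number (abundance over weighted abundance) of its rows. A total of 10 weighted values that look like dates were left out of the matching number, and 36 rows with a space before the gene identifier were read as having a gene. Python 3.11.15 was used, with pandas 2.3.3, numpy 2.4.6, scipy 1.17.1 and matplotlib 3.10.9. Classes were compared within libraries by an exact sign-flip test (4096 patterns, Benjamini-Hochberg over 5 measures), MM within breeds (216 relabellings) and breeds over 34650 partitions, at an adjusted p of 0.05; the code was tested on simulated data. The smallest p these allow is 0.000488 for the sign-flip and 0.00926 for MM.

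Members, miRNA lists and marker lists were chosen with earlier results of these data known. Positions named were those of named miRNAs in at least 3 libraries, the 10 of category 0 or 1 with the lowest alignment score (ties by more libraries, then position) and, after their values were seen, positions with a gene elsewhere. Small RNAs named were the 10 with most members and the listed families. No test ran across many features. Some results that met these rules are not reported here.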

Additional observations from a re-analysis of the deposited data

Results flagged for a closer look

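The share of interactions with no listed gene in Hampshire high MM replicate 2, 42.9%, was far from the other 3 Hampshire libraries, which lay between 20.2% and 22.7%. The gap to the nearest was 0.891 of the range of the 4 libraries, above Dixon's 95% critical value. Chance flags about 1 in 20 groups, and 1 of 35 tested here was flagged. Among named miRNAs alone the share in that library was 18.1%, and 92.7% of its 233 members were assigned to unnamed small RNAs.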

How the results depend on the processing

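Of 182 values recomputed over the 8 comparisons, 169 kept their direction and their side of the threshold, or, for recurrence, moved by less than 1 SD. Window starts passed under every alternative tried, but their difference ranged from -1.68 (without mitochondrial positions) to -7.09 (shared fragment values counted once). It was -4.93 with named miRNAs only, -5.34 on rows with a ratio above 0.15 and -5.68 with rows counted in place of starts. Every alternative kept the rule that 1 row with a gene is enough, so none removed the tie between class and number of windows. On rows with a ratio above 0.15 the matching difference was 385 positions. High minus low MM reversed with named miRNAs only (-1.66 percentage points), with category 0 to 2 only (-3.76) and with shared fragment values counted once (-0.28); none passed. Counting shared values once was added after the data were seen, as were the strict reading of identifiers (815 members), leaving out members in RefSeq coding genes and leaving out scaffolds. The category 0 or 1 difference was 0.43 points without miR-4331-5p, and the share in category 0 to 2 differed by 1.22 points. The alignment difference was -0.0023 with named miRNAs only, -0.19 with shared values counted once and 0.11 without miR-4331-5p. The difference in matching positions no longer passed with category 0 to 2 only (78.4) or with shared values counted once (49.2), while that in unnamed small RNAs then passed (14.0 percentage points). The causes were not tested.

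Leaving out each library gave 0.805 to 8.38 percentage points for MM, 34.8 to 68.8 squared percentage points for the variance between breeds (52.4 with all), -5.67 to -2.30 points for category, 0.03 to 0.06 for alignment, 59.1 to 156 matching positions, 3.93 to 7.02 points for unnamed small RNAs, -3.35 to -3.02 window starts and -24.5 to -16.4 points for recurrence. The tab-name reading of Pietrain gave 3.48 points for MM. With a replicate block the adjusted p was 0.406 for MM and 0.176 for breeds, and no call changed; no label links a replicate number to a litter, batch or day in common, and replicate 1 was above its group mean in 3 of 6 groups. Read depth is unknown, and libraries with few members (11 at the lowest) give coarse shares.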
